A study of Mus musculus with 11 samples.

Results

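The chemokines and cytokines that place lymphocytes within lymphoid tissue were examined in mouse airway RNA as a set of 9 genes, taken by symbol from the 21899 genes of the expression table. The set holds the chemokines Ccl19, Ccl21a, Cxcl13 and Cxcl12, their receptors Ccr7, Cxcr5 and Cxcr4, and the lymphotoxins Lta and Ltb. All 9 genes were found once each in the table, and all 9 were among the 14004 genes that entered the tests, for which the mean FPKM (fragments scaled to exon length and library size) had to reach 0.5.

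The study asked how GGsTop, an inhibitor of γ-glutamyl transferase, changed the airway in a mouse model of asthma exacerbation, and RNA-seq was run on 11 libraries from wild-type BALB/c male mice that were young adults. The 3 PBS libraries (PBS1 to PBS3) came from mice that were not sensitized and received PBS. The 4 OVA/LPS/Vehicle libraries (OL12, OL34, OL56 and OL78) came from mice sensitized with ovalbumin (OVA) and alum, challenged with OVA in the nose, then given lipopolysaccharide (LPS) in the nose and vehicle in the trachea. The 4 OVA/LPS/GGsTop libraries (OLG1 to OLG4) came from mice treated alike but with GGsTop in place of vehicle. The latter groups are called the vehicle group and the GGsTop group below. Whether labels such as OL12 stand for pools of animals is not stated, and no OVA-only, LPS-only or GGsTop-only group was analysed here. The labels name the tissue as trachea, whereas the methods describe bluntly dissected airway with the trachea removed. Scgb1a1, the secretory protein of club cells, stood between 26100 and 47900 FPKM in the 11 libraries, and Epcam and Foxj1 were detected in each. As these were bulk samples, fewer cells of a type and less RNA per cell cannot be told apart.

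CCL19 and CCL21 are made by stromal cells of T cell zones and, for CCL21, by lymphatic vessels, and they draw dendritic cells and naive T cells through their receptor CCR7. CXCL13, made by follicular stromal cells, draws B cells and follicular helper T cells through CXCR5, and CXCL12 holds many leukocytes in place through CXCR4. Lymphotoxin α and β form a membrane-bound complex on lymphocytes that acts on the lymphotoxin β receptor of stromal cells, where the alternative NFκB pathway switches on the homeostatic chemokines, and the same genes appear where lymphoid follicles form around inflamed bronchi.

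By gene identifier on GRCm38, which is not the build named for the files, Ccl19 (chr4:42754525-42756577) and Ccl21a (chr4:42772860-42773993) lie close together on chromosome 4, and Lta (chr17:35203165-35205351) and Ltb (chr17:35194439-35196320) on chromosome 17. Cxcl13 lies at chr5:95956951-95961068, Cxcl12 at chr6:117168535-117181367, Ccr7 at chr11:99144196-99155077, Cxcr5 at chr9:44511787-44561877 and Cxcr4 at chr1:128588199-128592293, and all 9 genes are protein-coding and were measured over their exons.

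The sequence before the start is printed for 4 genes, Cxcl13 and Ccl21a because they were high in the same libraries, and Lta and Ltb because they are neighbours on chromosome 17 and form one complex. RefSeq held a promoter for 7 of the 9 genes, and Ccr7 and Cxcr5 were not among them. The sequences run in the direction of the gene on GRCm38.p6 and hold at most 250 bases, fewer where the gene model reached into them (248 for Ccl21a, 182 for Ltb and 38 for Ccl19). Capitals mark each match to GGGNNNNNCC, a loose form of the NFκB site, on either strand (GGNNNNNCCC when read from the other), where overlapping matches run together.
Cxcl13, chr5:95956689-95956938, plus strand: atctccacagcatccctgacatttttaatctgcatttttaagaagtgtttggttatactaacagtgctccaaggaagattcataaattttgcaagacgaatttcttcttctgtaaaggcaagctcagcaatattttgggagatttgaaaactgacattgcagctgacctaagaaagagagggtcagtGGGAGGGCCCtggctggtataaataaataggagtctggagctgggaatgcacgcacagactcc
Ccl21a, chr4:42773994-42774241, minus strand: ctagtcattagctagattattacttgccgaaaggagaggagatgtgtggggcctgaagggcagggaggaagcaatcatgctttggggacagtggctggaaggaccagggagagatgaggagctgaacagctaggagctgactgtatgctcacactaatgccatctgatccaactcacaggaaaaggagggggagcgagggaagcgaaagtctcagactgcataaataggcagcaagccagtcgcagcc
Lta, chr17:35205352-35205601, minus strand: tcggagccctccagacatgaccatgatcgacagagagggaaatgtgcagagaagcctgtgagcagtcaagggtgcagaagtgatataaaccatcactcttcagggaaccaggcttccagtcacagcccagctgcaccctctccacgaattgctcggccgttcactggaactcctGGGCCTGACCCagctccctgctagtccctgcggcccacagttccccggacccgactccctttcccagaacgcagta
Ltb, chr17:35194257-35194438, plus strand: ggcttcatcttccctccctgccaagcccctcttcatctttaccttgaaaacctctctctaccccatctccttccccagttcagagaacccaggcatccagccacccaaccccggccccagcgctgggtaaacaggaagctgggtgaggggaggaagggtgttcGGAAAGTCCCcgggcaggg
The motif was present in 5 of the 7 genes (Cxcl13, Ccl19, Cxcl12, Lta and Ltb), and 45.8% of 32851 promoters held it within 250 bases. Ccl21a and Cxcr4 held no match. The TATA box letters TATAAA were present in Cxcl13, Cxcr4 and Lta, and in 7.59% of all promoters. A match is a description of letters and not a binding site.

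The libraries held between 14513136 and 18632382 fragments. All 11 libraries entered one limma model of log2(FPKM + 1), whose two-sided p-values were corrected over the 14004 genes (Benjamini-Hochberg), and a call means a corrected value below 0.05. Differences are between group means on that log2 scale, which understates those of low genes. Some properties of whole libraries moved with the groups. The share of mitochondrial FPKM was 2.08% to 10.1% in the PBS group, 14.5% to 19.5% in the vehicle group and 7.4% to 11.1% in the GGsTop group. The dependence of a library on gene GC content differed between the groups compared, at −0.261 to −0.19 log2 units per 10 GC points in the vehicle libraries and 0.0464 to 0.108 in the GGsTop libraries, and within the PBS group it was 0.0484 and 0.0611 in PBS2 and PBS1 and 0.533 in PBS3. Correction for GC content moved the difference of Cxcl13 between vehicle and PBS from 0.5 to 0.05, and that of Ltb between GGsTop and vehicle from −0.48 to −0.76, neither of them called in either fit. Among all genes, vehicle against PBS gave 3096 lower and 2231 higher calls, 22.1% and 15.9% of the genes tested. That split became 4570 and 1232 when libraries were rescaled to the same FPKM total, which moved the median of all genes from −0.01 to −0.15, and 1825 and 3358 without mitochondrial genes, which moved it to 0.12. GGsTop against vehicle gave 254 lower and 966 higher calls, or 354 and 344 with libraries at the same median and 155 and 2026 at the same FPKM total, where the median of all genes moved from 0.03 to 0.11. GGsTop against PBS gave 115 lower and 288 higher calls, or 243 and 250 at the same FPKM total.

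The levels of the 9 genes are given per kilobase of exon, so their order between genes is approximate. Limits of counting for Ccl21a, Ccl19 and Cxcr5 are given below. In the PBS group, the order of mean FPKM was Ccl21a (69.4), Cxcl12 (41.8), Cxcr4 (39.8), Ltb (30.4), Ccr7 (16.4), Cxcl13 (8.93), Cxcr5 (3.98), Ccl19 (2.14) and Lta (0.95). Only Ltb and Ccr7 were separated among neighbours in that order, and the ranges of all other neighbours overlapped over the 3 libraries. The order was the same in the vehicle group except that Ccr7 (6.91 FPKM) came after Cxcl13 (12.5 FPKM), and there only Cxcr4 and Ltb were separated. In the GGsTop group Cxcl12 (42.2 FPKM) came first and Ccl19 (0.579 FPKM) last, and the separated neighbours were Cxcr4 and Ltb, Ltb and Cxcl13, and Ccr7 and Cxcr5. The receptor Ccr7 stood above the ligand Ccl19 and below the ligand Ccl21a in each of the 11 libraries.

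**Figure D1:**
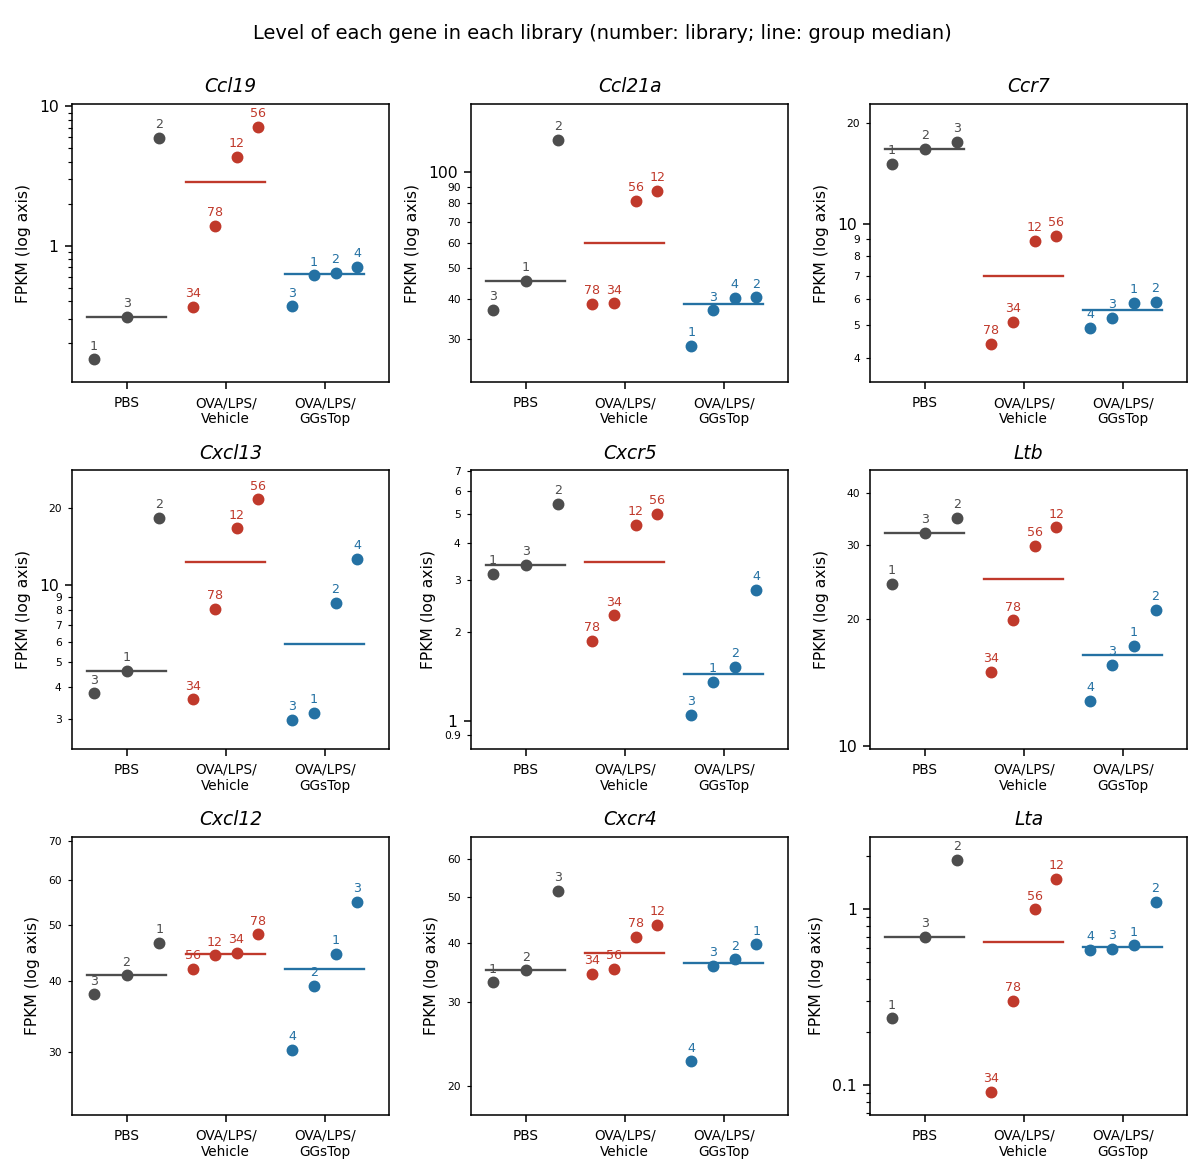
FPKM of each of the 9 genes in each library on log axes, by group, with the number of the library above its point and a line at the group median. Ccr7 is the gene whose PBS libraries (15.1 to 17.5 FPKM) sit above all others (at most 9.23 FPKM), while Ccl19, Ccl21a and Cxcl13 are high in PBS2, OL12 and OL56.

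Ccr7 was the gene of the set that fell after OVA/LPS, and it was low with GGsTop as well. Ccr7 stood at 15.1, 16.7 and 17.5 FPKM in PBS1, PBS2 and PBS3. It stood at 8.9, 5.12, 9.23 and 4.39 FPKM in OL12, OL34, OL56 and OL78, and at 5.81, 5.85, 5.26 and 4.92 FPKM in OLG1 to OLG4. The 3 PBS libraries were thus above all 8 others, and the GGsTop values lay within the range of the vehicle values. Ccr7, the receptor that guides dendritic cells and T cells to lymph nodes, was lower in the vehicle group than in the PBS group (difference −1.2, 2.29-fold lower in FPKM + 1, SE 0.21, 95% interval −1.65 to −0.74, adjusted p = 0.00397 by limma). Between the GGsTop and PBS groups the difference was −1.43 (2.7-fold lower, SE 0.21, 95% interval −1.89 to −0.98, adjusted p = 0.01 by limma). These comparisons share the PBS libraries. Between the GGsTop and vehicle groups it was −0.24 (95% interval −0.66 to 0.18, adjusted p = 0.416 by limma), an interval that leaves room for a fall by 0.66 or a rise by 0.18.

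Ccr7 rested on 144 to 646 fragments per library. Its difference between vehicle and PBS was −1.35 with libraries at the same FPKM total and −1.05 without mitochondrial genes, or −1.2 and −1.17 relative to the median of all genes in those fits, and −1 after correction for GC content (adjusted p = 0.0116 by limma). Without PBS3, the difference between GGsTop and PBS was −1.39 with an adjusted p of 0.0517 by limma, which is no longer a call.

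Neither ligand of Ccr7 was called. Ccl21a, a chemokine of T cell zones and lymphatic vessels that the study lists among NFκB-related genes picked on these samples, which is no independent evidence of its direction, stood at 45.7, 126 and 37 FPKM in PBS1, PBS2 and PBS3. It stood at 87.6, 38.8, 81.5 and 38.6 FPKM in OL12, OL34, OL56 and OL78, and at 28.5, 40.5, 36.9 and 40.4 FPKM in OLG1 to OLG4. PBS2, OL12 and OL56 were the high libraries, the other 8 lay between 28.5 and 45.7 FPKM, and all 3 groups overlapped. The differences were −0.06 for vehicle against PBS (SE 0.41, 95% interval −0.95 to 0.83, adjusted p = 0.915 by limma), −0.65 for GGsTop against vehicle (SE 0.38, 95% interval −1.47 to 0.18, adjusted p = 0.26) and −0.71 for GGsTop against PBS (SE 0.41, 95% interval −1.60 to 0.19, adjusted p = 0.347). The first of these was 0.47 without PBS2 and −0.40 without PBS3, so single PBS libraries set its direction. Ccl21b and Gm13304, near-identical copies of Ccl21a, were listed at 0 in each library, and how reads shared by such copies were counted is not stated, so the level of Ccl21a is uncertain.

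Ccl19, the other ligand of Ccr7 and likewise in the study's NFκB list, stood at 0.153, 5.95 and 0.31 FPKM in PBS1, PBS2 and PBS3. It stood at 4.32, 0.365, 7.09 and 1.38 FPKM in OL12, OL34, OL56 and OL78, and at 0.613, 0.636, 0.366 and 0.701 FPKM in OLG1 to OLG4. The spread within groups was the widest of the set: the highest library was 38.9 times the lowest in the PBS group and 19.4 times in the vehicle group, against 1.92 times in the GGsTop group. Between 2 and 98 fragments stood behind these values. Ccl19 differed by 0.65 between vehicle and PBS (SE 0.65, 95% interval −0.78 to 2.09, adjusted p = 0.441 by limma), by −1.13 between GGsTop and vehicle (SE 0.61, 95% interval −2.46 to 0.20, adjusted p = 0.225) and by −0.48 between GGsTop and PBS (SE 0.65, 95% interval −1.91 to 0.96, adjusted p = 0.704). Without PBS2, the first became 1.48 with an adjusted p of 0.0445 by limma and the last 0.36. Ccl19 has processed copies in the mouse genome, so its counts may be incomplete.

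Cxcl13, the ligand of Cxcr5 that draws B cells into follicles, stood at 4.62, 18.4 and 3.78 FPKM in PBS1, PBS2 and PBS3. It stood at 16.7, 3.58, 21.7 and 8.07 FPKM in OL12, OL34, OL56 and OL78, and at 3.18, 8.57, 2.98 and 12.7 FPKM in OLG1 to OLG4. The groups overlapped throughout, and PBS2, OL12 and OL56 were again highest. The difference was 0.50 between vehicle and PBS (SE 0.65, 95% interval −0.92 to 1.91, adjusted p = 0.553 by limma) and −0.73 between GGsTop and vehicle (SE 0.60, 95% interval −2.04 to 0.58, adjusted p = 0.422). It was −0.24 between GGsTop and PBS (SE 0.65, 95% interval −1.65 to 1.18, adjusted p = 0.857), and 0.40 without PBS2.

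Cxcr5, the receptor on B cells and follicular helper T cells, was lowest with GGsTop without a call. It stood at 3.15, 5.42 and 3.38 FPKM in PBS1, PBS2 and PBS3. It stood at 4.61, 2.28, 5.03 and 1.87 FPKM in OL12, OL34, OL56 and OL78, and at 1.36, 1.53, 1.05 and 2.78 FPKM in OLG1 to OLG4. The highest GGsTop library was below the lowest PBS library, while OLG4 lay within the vehicle range. The difference between GGsTop and PBS was −0.91 (SE 0.29, 95% interval −1.55 to −0.27, adjusted p = 0.116 by limma) and that between GGsTop and vehicle −0.70 (SE 0.27, 95% interval −1.29 to −0.10, adjusted p = 0.113). Between vehicle and PBS it was −0.21 (SE 0.29, 95% interval −0.85 to 0.43, adjusted p = 0.58). An exon of Bcl9l on the opposite strand overlaps 110 exon bases of Cxcr5, and whether the counting used strand is not stated.

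No difference was called for Cxcl12, which retains leukocytes and progenitors in tissue, or its receptor Cxcr4. Cxcl12 stood at 46.6, 40.9 and 37.9 FPKM in PBS1, PBS2 and PBS3, between 42 and 48.2 FPKM in the 4 vehicle libraries, and at 44.6, 39.2, 54.9 and 30.3 FPKM in OLG1 to OLG4. Its differences were 0.10 (95% interval −0.26 to 0.46), −0.11 (95% interval −0.45 to 0.22) and −0.01 (95% interval −0.38 to 0.35) for vehicle against PBS, GGsTop against vehicle and GGsTop against PBS. These are the narrowest intervals of the set, and a difference of more than 0.46 in either direction lies outside all 3 of them. Cxcr4 stood at 33, 35 and 51.5 FPKM in PBS1, PBS2 and PBS3, between 34.4 and 43.6 FPKM in the vehicle libraries, and at 39.7, 36.9, 35.7 and 22.5 FPKM in OLG1 to OLG4. OLG4 was the low library for both genes. The differences of Cxcr4 were −0.02 (95% interval −0.47 to 0.42), −0.21 (95% interval −0.63 to 0.20) and −0.24 (95% interval −0.68 to 0.21) in the same order.

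The lymphotoxins parted in level. Ltb, the membrane anchor of the complex and a member of the study's NFκB list, stood at 24.3, 34.8 and 32.1 FPKM in PBS1, PBS2 and PBS3. It stood at 33.1, 15, 29.9 and 19.9 FPKM in OL12, OL34, OL56 and OL78, and at 17.3, 21.1, 15.6 and 12.8 FPKM in OLG1 to OLG4. All 4 GGsTop libraries were below the 3 PBS libraries, and they overlapped the vehicle libraries. The difference was −0.83 between GGsTop and PBS (SE 0.25, 95% interval −1.39 to −0.27, adjusted p = 0.0998 by limma), −0.48 between GGsTop and vehicle (SE 0.23, 95% interval −0.99 to 0.04, adjusted p = 0.189) and −0.35 between vehicle and PBS (SE 0.25, 95% interval −0.91 to 0.20, adjusted p = 0.282).

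Lta, the secreted partner, was near the lower limit of these libraries with 2 to 41 fragments. It stood at 0.24, 1.91 and 0.699 FPKM in PBS1, PBS2 and PBS3, at 1.49, 0.0915, 0.998 and 0.303 FPKM in OL12, OL34, OL56 and OL78, and at 0.624, 1.1, 0.596 and 0.586 FPKM in OLG1 to OLG4. The groups overlapped in every comparison. Its differences were −0.17 (95% interval −0.86 to 0.53), 0.07 (95% interval −0.57 to 0.71) and −0.10 (95% interval −0.79 to 0.60) for vehicle against PBS, GGsTop against vehicle and GGsTop against PBS, none of which was detectable as a change at this depth.

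**Figure D2:**
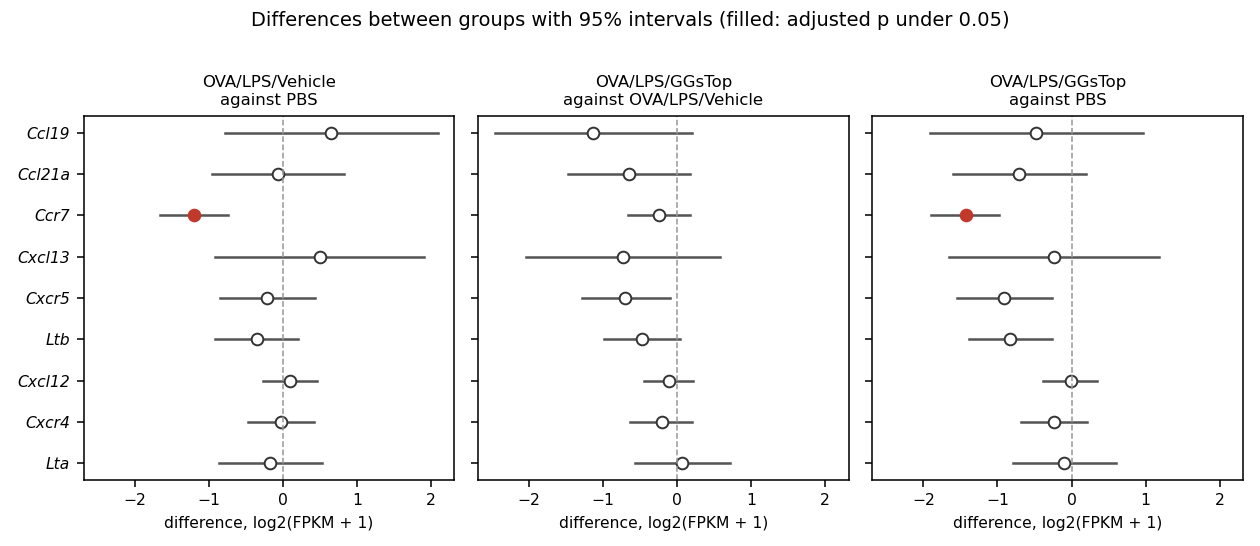
Differences between group means of log2(FPKM + 1) for the 9 genes in the 3 comparisons, as points with 95% intervals from limma, filled where the adjusted p is under 0.05. Ccr7 is filled at −1.2 and −1.43 against PBS and open at −0.24 between the treated groups, and Ccl19 and Cxcl13 have the widest intervals.

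Over the set, vehicle against PBS gave 1 call among 9 genes, against 38% of the 14004 genes tested, and 1 of 9 genes (Ccr7) had groups that did not overlap, against 44.1% of all genes. The median difference of the set was −0.06 beside −0.01 for all genes, with 6 of 9 genes below 0, against 51.1% of all genes. GGsTop against vehicle gave no call by limma among the 9 genes and 1 gene (Cxcr5) at an unadjusted p under 0.05, against 8.71% called among all genes. On the recovered fragments with limma's voom it likewise gave 0 calls, with 2 genes (Cxcr5 and Ltb) at an unadjusted p under 0.05. No gene of the set had groups that did not overlap in that comparison, against 29.7% of all genes. There 8 of 9 were below 0, against 46.1% of all genes, with a median of −0.48 beside 0.03 for all genes. GGsTop against PBS gave 1 call (Ccr7) against 2.88% of all genes, and 3 of 9 genes (Ccr7, Cxcr5 and Ltb) had groups that did not overlap, against 14.8%. All 9 were below 0 there, with a median of −0.48 beside 0.01 for all genes, and 49% of all genes were below 0.

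When PBS libraries were paired with GGsTop libraries of the same number (3 pairs, without OLG4), the call of Ccr7 remained (−1.39, adjusted p = 0.0187 by limma). This pairing follows the numbers in the labels, which do not state that libraries with the same number belong together. In a correlation check on these same libraries, PBS1 went more closely with OLG3 (0.419) than with OLG1 (0.158). With the pairing and a correction for GC content together, 4 genes were called: Cxcl13 (−0.72, adjusted p = 0.0489), Ltb (−0.60, adjusted p = 0.0394), Ccr7 (−1.32, adjusted p = 0.0143) and Cxcr5 (−1.03, adjusted p = 0.0301). In that fit 2.98% of all genes were called, made up of 0.843% lower and 2.14% higher. No other fit called Cxcl13 or Ltb between GGsTop and PBS, so these calls depend on the pairing and correction chosen. With array weights, which weight each library by how well it fits its group, and no pairing, Ccr7 (−1.31) and Cxcr5 (−0.84, adjusted p = 0.0433) were called, in a fit that called 18.3% of all genes. The weights of PBS1, PBS2 and PBS3 were 3.887, 0.4314 and 0.1533, so PBS1 alone carried most of the PBS mean there.

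Much of the variation of the set lay within groups. Compared with all genes in the fit, the spread within groups was at percentile 98.98 for Ccl19, 98.95 for Cxcl13, 97.1 for Ccl21a and 94.3 for Lta, and at percentile 62.1 for Cxcl12 and 79.3 for Ccr7. The 3 libraries in which Ccl19, Ccl21a and Cxcl13 were high, PBS2, OL12 and OL56, come from both the PBS and the vehicle mice. Glycam1, which high endothelial venules of lymph nodes secrete and on which L-selectin can bind, stood at 18.1, 14.5 and 21.5 FPKM in these libraries and at no more than 4.17 FPKM in the other 8. Madcam1, the addressin of mucosal lymphoid tissue, stood at 0.719, 0.854 and 1.44 FPKM there and at no more than 0.288 FPKM in the others. Cr2, the complement receptor of B cells and follicular dendritic cells, stood at 5.56, 7.14 and 7.12 FPKM there and at 0.697 to 1.84 FPKM in the others. The other genes listed first for addressins and lymphoid stroma (Chst4, Fut7, Bst1, Tnfsf11 and Il7) did not set these libraries apart. Chst4 stood at 1.07, 0.763 and 0.22 FPKM there and at 0.682 FPKM in PBS3. Fut7 stood at 1.01, 1.51 and 0.906 FPKM there and at 1.3 FPKM in OLG1. Bst1 stood at 6.77, 5.21 and 4.5 FPKM there and at 7.96 FPKM in PBS3.

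Without PBS2, OL12 and OL56, left out together for their Glycam1 level in a setting chosen after seeing the data, Ccr7 was called as before against PBS, at −1.59 for vehicle (adjusted p = 0.00662 by limma) and −1.42 for GGsTop (adjusted p = 0.00296). Between GGsTop and vehicle it gave −0.20 for Ccl19 and −0.09 for Ccl21a, in place of −1.13 and −0.65, and 0.08 for Cxcl13 in place of −0.73. For Ltb it gave −0.06 in place of −0.48, and for Cxcr5 −0.24 in place of −0.70. OL12 and OL56 were the highest vehicle libraries for Ccl19, Ccl21a, Cxcl13, Ltb and Cxcr5, so leaving them out had to lower the vehicle mean. They were left out for high Glycam1, which is among the genes most like Ccl19. The smaller differences therefore follow from that choice and say nothing further about GGsTop. In this fit 0 of 14004 genes were called between GGsTop and vehicle.

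**Figure D3:**
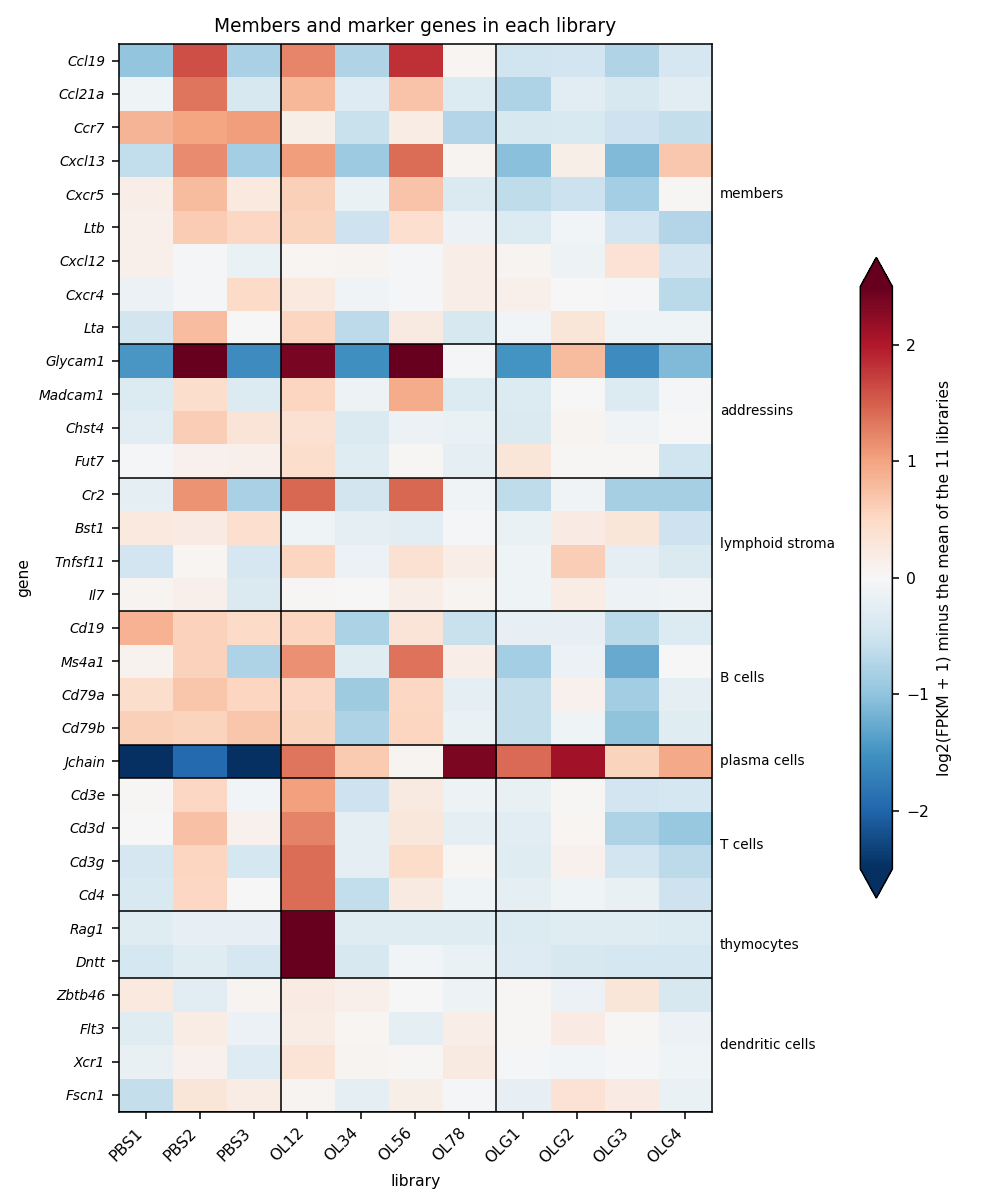
Log2(FPKM + 1) of the 9 genes and of marker genes in each library (columns), as the deviation from the gene's mean over the 11 libraries, with colours cut at 2.5. Ccl19, Ccl21a, Cxcl13, Glycam1 and Cr2 are raised in PBS2, OL12 and OL56, Ccr7 is raised in the 3 PBS libraries, and Rag1 and Dntt are raised in OL12.

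OL12 also carried genes of immature thymocytes: Rag1 stood at 8.53 FPKM and Dntt at 13.8 FPKM there, and at no more than 0.0976 and 0.301 FPKM in any other library. The 9 thymocyte markers summed to 56.5 FPKM in OL12 and to 4.47 to 10 FPKM in the other libraries. Thyroglobulin (Tg) stood at 90.6, 166 and 303 FPKM in OL12, OL34 and OL56 and at no more than 1.44 FPKM elsewhere. OL34 held thyroid genes without high Ccl19, Ccl21a or Cxcl13. Thymus and lymph node tissue also make the chemokines described here, and the part of such tissue in their levels was not tested. Without OL12, Ccr7 differed by −1.32 between vehicle and PBS (adjusted p = 0.00664 by limma).

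Lymphocyte markers are given beside the receptors. The 16 B cell markers summed to 175 to 215 FPKM in the PBS group, 73.6 to 196 FPKM in the vehicle group and 63.9 to 120 FPKM in the GGsTop group, and none of them was at 0 in all libraries. Against PBS, Fcmr (−1.56, SE 0.30, adjusted p = 0.0254 by limma) and Cd37 (−0.85, SE 0.20, adjusted p = 0.0483) were called lower in the GGsTop group, where 0.821% of all genes were. In that comparison 15 of the 16 B cell genes were below 0, and their median was −0.89. Between GGsTop and vehicle all 16 were below 0 with a median of −0.51 and none was called. Of all genes, 46.1% were below 0 between GGsTop and vehicle, 49% between GGsTop and PBS and 51.1% between vehicle and PBS. Between vehicle and PBS 12 of the 16 were below 0 with a median of −0.47, Cd37 was called lower (−0.78, SE 0.2, adjusted p = 0.0141 by limma) and Blnk higher (0.59, SE 0.2, adjusted p = 0.0376). Over all genes, 22.1% were called lower and 15.9% higher between vehicle and PBS. The 19 T cell markers summed to 62.8 to 99 FPKM, 50.8 to 175 FPKM and 40.2 to 66.3 FPKM in the same groups. The 175 FPKM was that of OL12, which also carried thymocyte genes, and OL34, OL56 and OL78 stood at 50.8, 85.8 and 60.6 FPKM. All 19 were below 0 between GGsTop and vehicle with no call, and the part of OL12 in this was not tested. Between vehicle and PBS 7 of the 19 were below 0 with a median of 0.1, and Il7r was called higher (0.72, SE 0.25, adjusted p = 0.0409 by limma). The 13 dendritic cell markers summed to 68.5 to 82.9 FPKM, 62.6 to 79.3 FPKM and 66.2 to 89.9 FPKM, ranges that overlapped in all comparisons. Their median difference was 0.03 between vehicle and PBS, with 1 of the 12 tested genes (Cacnb3) called lower. What part the number of B, T or dendritic cells had in the receptor levels was not tested.

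Markers of other cells were called as well. Between vehicle and PBS, 4 of 8 airway epithelium markers were called higher with a median of 1.08, and 4 of 8 blood vessel endothelium markers were called lower with a median of −0.59, where 15.9% of all genes were called higher and 22.1% lower. Of the 8 lymphatic endothelium markers 1 was called between vehicle and PBS and 1 between GGsTop and vehicle, with a median of 0.04 between vehicle and PBS and −0.04 between GGsTop and vehicle. Both calls were Flt4, the VEGFR3 receptor of lymphatic vessels, called lower between vehicle and PBS (−1.04, SE 0.21, adjusted p = 0.00596 by limma) and called higher between GGsTop and vehicle (0.82, SE 0.19, adjusted p = 0.0313). Of 12 germinal centre and plasma cell genes, 2 were called higher (Jchain and Derl3) and 2 lower (S1pr2 and Sdc1) between vehicle and PBS, with a median of 0.2. Derl3 was at 1.05 (SE 0.28, adjusted p = 0.0146 by limma), S1pr2 at −0.89 (SE 0.17, adjusted p = 0.00511) and the plasma cell marker Sdc1 at −0.40 (SE 0.14, adjusted p = 0.0426). Jchain rose by 4.26 after OVA/LPS (SE 0.58, adjusted p = 0.00337 by limma) and stood at 4.41 above PBS with GGsTop, from 7.16 to 33.2 FPKM in the PBS group to 137 to 665 FPKM and 191 to 563 FPKM in the treated groups. Between GGsTop and vehicle, only Mzb1 of the 12 was called, higher (0.69, SE 0.19, adjusted p = 0.0458 by limma), where 6.9% of all genes were. The median of the 12 there was 0.1, with 4 below 0. Against PBS, Jchain and Derl3 (1.68, SE 0.28, adjusted p = 0.0151 by limma) were called higher with GGsTop, where 2.06% of all genes were.

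The genes most like each member over the 11 libraries were the 3 with the highest Pearson correlation of log2(FPKM + 1) among all genes in the fit, given as a description of libraries that also share depth and group. For Ltb these were the B cell gene Cd72 (r = 0.979), H2-Oa (0.961) and Coro1a (0.961), and for Cxcr5 they were Gpr183 (0.928), the oxysterol receptor that positions B cells, and the B cell genes Pax5 (0.922) and Fcrla (0.913). For Ccr7 they were Prf1 (0.964) and Ctsw (0.956), genes of cytotoxic lymphocytes, and Chst3 (0.947). Prf1, perforin, stood at 2.88, 3.05 and 2.7 FPKM in the PBS libraries and at 0.787 to 1.57 FPKM in the other 8. For Ccl19 they were Havcr1 (0.955), Glycam1 (0.947) and Ubd (0.938), and for Ccl21a Izumo1r (0.917), the folate receptor 4 of regulatory T cells, Ubd (0.914) and Il22ra2 (0.913). For Cxcl13 they included Pla2g2d (0.917) and Echs1 (0.914), and for Lta Dnase1l3 (0.891), Fahd2a (0.88) and Nol3 (0.879). Cxcl12 was most like Scn3b (0.919), Plekhg1 (0.912) and Prkd3 (0.906), and Cxcr4 most like Hcst (0.841), Gmfg (0.836) and Birc3 (0.836).

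Correlation over the 11 libraries was examined for 5 pairs, each a ligand and its receptor except Lta with Ltb, which form one complex. The two-sided permutation p-values were adjusted over the 5. Cxcl13 and Cxcr5 had r = 0.727 (permutation p = 0.0155, adjusted 0.0773) and Spearman's rho = 0.773 (permutation p = 0.00795, adjusted 0.0372), r = 0.584 without OL56 and OLG3, and r = 0.871 on the deviations from the group means. Lta and Ltb had r = 0.648 (permutation p = 0.0331, adjusted 0.0827) and rho = 0.727 (permutation p = 0.0149, adjusted 0.0372), r = 0.365 without PBS2 and OL12, and r = 0.872 on the deviations. The Pearson correlation of Lta and Ltb thus depended on the libraries used. Leaving out PBS2, OL12, OL34 or OL56 alone gave r = 0.541, 0.582, 0.579 and 0.635 with an unadjusted permutation p above 0.05. Neither pair with Ccr7 passed: Ccl19 and Ccr7 had r = 0.258 (permutation p = 0.443, adjusted 0.443) and rho = −0.055 (permutation p = 0.881, adjusted 0.947), and Ccl21a and Ccr7 had r = 0.513 (permutation p = 0.109, adjusted 0.181) and rho = 0.427 (permutation p = 0.194, adjusted 0.324). The PBS libraries stood apart in Ccr7, so these values pool separate clusters, and 3 libraries allow no test among themselves. Within the 8 treated libraries, a choice made after seeing the data, Ccl21a and Ccr7 had r = 0.866 (exact permutation p = 0.0282, adjusted over 2 pairs 0.0301) and rho = 0.571 (exact permutation p = 0.151, adjusted 0.302). Ccl19 and Ccr7 had r = 0.857 (exact permutation p = 0.0301, adjusted 0.0301) and rho = 0.405 (exact permutation p = 0.327, adjusted 0.327). Both relations rested on OL12 and OL56, without which r was −0.431 for Ccl21a and −0.597 for Ccl19. Cxcl12 and Cxcr4 had r = 0.424 (permutation p = 0.184, adjusted 0.23) and rho = 0.027 (permutation p = 0.947, adjusted 0.947), and the correlation turned to −0.333 without OLG3 and OLG4.

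**Figure D4:**
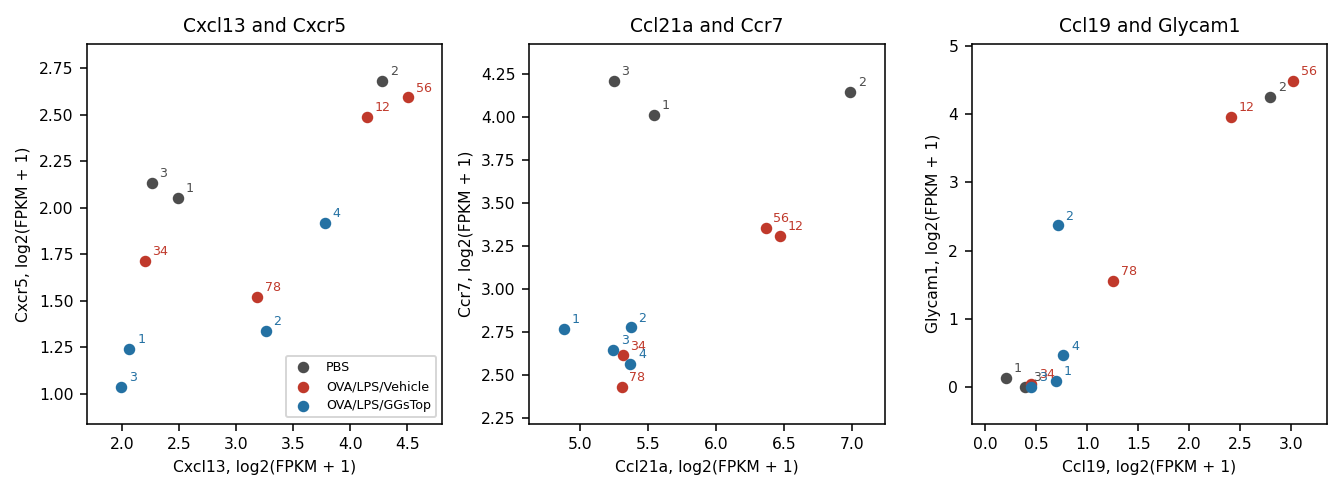
Log2(FPKM + 1) of Cxcl13 against Cxcr5, of Ccl21a against Ccr7 and of Ccl19 against Glycam1, 1 point per library with its number, coloured by group. PBS2, OL12 and OL56 lie at the upper right for Cxcl13 with Cxcr5 and for Ccl19 with Glycam1, and the 3 PBS libraries lie above the others for Ccr7.

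Genes that act with and downstream of lymphotoxin are given next, from lists chosen with earlier results known. Of 18 genes for the lymphotoxin and TNF receptors, their ligands and NFκB, 10 were called lower and 2 higher between vehicle and PBS, with a median of −0.34, where 22.1% of all genes were called lower and 15.9% higher. Map3k14, the kinase NIK that starts the alternative NFκB pathway, fell by 0.87 (log2 difference −0.87, SE 0.12, adjusted p = 0.00337 by limma), from 4.61 to 6.61 FPKM in the PBS libraries to 2.27 to 2.94 FPKM. Tnfrsf14, the receptor HVEM that binds soluble lymphotoxin α and LIGHT, fell by 1.28 (log2 difference −1.28, SE 0.21, adjusted p = 0.00374), from 12.6 to 18 FPKM to 4.14 to 9.38 FPKM. The lymphotoxin β receptor Ltbr stood at 35.1 to 58.5 FPKM in the PBS group, 28.1 to 30.3 FPKM in the vehicle group and 33.7 to 41.5 FPKM in the GGsTop group, and was called lower between vehicle and PBS (−0.62, SE 0.15, adjusted p = 0.0105 by limma). Between GGsTop and vehicle none of the 18 was called and 5 were below 0, with a median of 0.22. Against PBS, Relb, the partner of the alternative pathway, was called lower with GGsTop (−0.58, SE 0.12, adjusted p = 0.0299 by limma).

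Of 21 tested genes for other lymphocyte homing ligands and receptors, 1 was called lower and 3 higher between vehicle and PBS. Over all genes in that comparison, 22.1% were called lower and 15.9% higher. Ccl20, the ligand of CCR6 on lymphocytes and dendritic cells, stood at 0.607, 2.59 and 0.604 FPKM in PBS1, PBS2 and PBS3 and at 13.6, 26.3, 24.1 and 11.3 FPKM in OL12, OL34, OL56 and OL78. It rose by 3.16 (SE 0.39, adjusted p = 0.00337 by limma), and with GGsTop it was lower by 2.73 than with vehicle (log2 difference −2.73, SE 0.36, adjusted p = 0.00842). Ccl28, a mucosal chemokine for plasma cells, rose by 1.13 (SE 0.26, adjusted p = 0.00865) and differed by −1.13 between the treated groups (SE 0.24, adjusted p = 0.024). The gene called lower was Ackr4 (−0.64, SE 0.18, adjusted p = 0.0174 by limma), the scavenger receptor that removes CCL19 and CCL21. Ackr4 stood at 3.34 to 4.22 FPKM in the PBS libraries, 1.74 to 2.39 FPKM in the vehicle libraries and 0.791 to 2.07 FPKM in the GGsTop libraries (against PBS −0.93, SE 0.18, adjusted p = 0.0236 by limma). Among the 11 tested genes of vascular addressins and high endothelial venules, Icam1 (−1.16, SE 0.24, adjusted p = 0.00662) and Chst2 (−0.84, SE 0.23, adjusted p = 0.0159), a sulfotransferase for L-selectin ligands, were called lower after OVA/LPS, and Vcam1 (−0.47, SE 0.11, adjusted p = 0.0331) was called lower with GGsTop than with vehicle. Between GGsTop and vehicle 1.81% of all genes were called lower.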

How the data were processed

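Poly-A RNA of 11 mouse airway libraries was sequenced, and the authors deposited FPKM per gene and library. The submitters' processing notes name cutadapt 1.15, HISAT2 2.0.5, HTSeq 0.9.1 and the build mm39, and the strand setting is not given in the sources used here. The study's methods name a test on counts, whereas the FPKM used here were tested on a log scale. GENCODE M21 (GRCm38) matched 21795 gene identifiers. FPKM times exon length gave whole fragments (within 0.05) for 97.7% of genes, and 13690 genes entered voom on these.

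Groups of 3, 4 and 4 libraries followed the labels. limma 3.58.1 (R 4.3.3) was run on log2(FPKM + 1) with its variance trend. Nothing states that libraries are separate animals, so p-values measure the spread between libraries. Named are the 9 members, the first 4 genes and the 3 with the smallest p of each list, and the 3 genes most like each member, of which 1 is not reported here. Members and the 20 lists (3 pathway, 17 marker) were chosen with earlier results of these data known. PBS and GGsTop libraries were paired by the number in their labels (1 to 3), which is not stated to mark pairs. Deviations from the group means correlated at 0.158 to 0.624 within these pairs, and PBS1 went more closely with OLG3 (0.419). Alternatives changed the pseudocount, filter, scaling, variance model, library weights, GC correction, mitochondrial genes and libraries used. The models were tested on simulated data. Correlations used 100000 permutations. Python 3.11.15 with pandas 2.3.3, numpy 2.4.6, scipy 1.17.1 and matplotlib 3.10.9 served for tables and plots.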

Additional observations from a re-analysis of the deposited data

Results flagged for a closer look

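Lta in OLG2 stood at 1.1 FPKM, far above the other 3 GGsTop libraries (0.586 to 0.624 FPKM), with a gap to the nearest of 0.926 of the group's range. It was 1 flag among 18 groups of 4 libraries examined, and chance flags about 1 in 20 groups. The value rests on 22 fragments, against 12 to 13 in the other 3 libraries, and the cause was not tested.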

How the results depend on the processing

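Ccr7 was called lower in vehicle than in PBS under all alternatives run, with each library left out (−1.34 to −1.03) or otherwise (−1.59 to −1). Against PBS with GGsTop it was called in all but 1, the fit without PBS3, at −1.49 to −1.39 with a library left out and −1.6 to −1.31 otherwise. With each library left out in turn, 1 to 2 members were called between vehicle and PBS (2 without PBS2, Ccl19 being added) and 0 to 1 between GGsTop and PBS. Between GGsTop and PBS 2 members were called with array weights and 4 with the replicate block and GC correction together. The replicate block alone changed no call of a member. It gave 62 calls over all genes, against 403 without it and 14 in the same 6 libraries without it, and 2 of 3 PBS libraries correlated best with their own number. Calls over all genes ranged from 3007 (GC correction) to 7916 (array weights) around 5327 for vehicle against PBS, from 0 (without PBS2, OL12 and OL56) to 5214 (array weights) around 1220 for GGsTop against vehicle, where single libraries left out gave 24 to 3591, and from 14 to 2557 (array weights) around 403 for GGsTop against PBS. The shares called that stand beside the members therefore depend on these choices.

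The reversals were among differences that were not called, and the cause was not tested. For vehicle against PBS, the same FPKM total gave Cxcl12 −0.07. Array weights gave Lta 0.06, Cxcr4 0.17 and Cxcl12 −0. GC correction gave Ltb 0.04, Lta 0.14 and Ccl21a 0.25. Voom gave Cxcr4 0.03 and Ccl21a 0. Without mitochondrial genes Cxcr4 was 0.15 and Ccl21a 0.11. Leaving out single libraries gave Lta −0.45 to 0.17, Cxcr4 −0.14 to 0.17 and Ccl21a −0.4 to 0.47. For GGsTop against vehicle, GC correction gave Lta −0.13, and without PBS2, OL12 and OL56 Cxcl13 was 0.08 and Ccr7 0.17. Leaving out single libraries gave Lta −0.12 to 0.27 and Cxcl12 −0.25 to 0.03. For GGsTop against PBS, array weights gave Lta 0.34, Cxcr4 0.09 and Ccl19 0.19. GC correction gave Lta 0 and Cxcl12 0.01, and without mitochondrial genes Cxcl12 was 0.04. The replicate block gave Cxcl12 0.13, as did the same 6 libraries without it, and with GC correction the block gave Lta 0.04 and Cxcl12 0.16. Without PBS2, OL12 and OL56 Cxcl13 was 0.4, Lta 0.24 and Ccl19 0.36. Leaving out single libraries gave Cxcl13 −0.61 to 0.4, Lta −0.38 to 0.24, Cxcl12 −0.15 to 0.13 and Ccl19 −0.94 to 0.36, and for Cxcl12 with Cxcr4 r between −0.358 and 0.706. Lta had no value under a minimum of 1 FPKM. Depth limits Lta and Ccl19, which had as few as 2 fragments in a library.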

Other observations

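Genes listed as markers of innate lymphoid and lymphoid tissue inducer cells, which can also carry lymphotoxin, were called in both directions. Il22 (at most 0.58 FPKM) and Il23r (at most 0.326 FPKM) were too low for the tests. Among the called genes, Id2 stood at 18.1 to 31.2 FPKM and Kit at 12.4 to 46.1 FPKM. Which cells the calls came from was not tested. Between vehicle and PBS, Id2, a transcription factor of innate lymphoid cells, was higher (0.44, SE 0.1, adjusted p = 0.00981 by limma), Il1rl1, the receptor of interleukin-33, was higher (0.55, SE 0.18, adjusted p = 0.0351) and Kit was lower (−0.91, SE 0.25, adjusted p = 0.0165), and the median of the 7 tested genes was 0.06. Between GGsTop and vehicle, Id2 (−0.55, SE 0.1, adjusted p = 0.0186 by limma) and Ncr1, a receptor of natural killer cells (−0.54, SE 0.14, adjusted p = 0.0406), were called lower with a median of −0.17. Against PBS, Ncr1 was lower with GGsTop (−0.8, SE 0.15, adjusted p = 0.024 by limma) and Il1rl1 higher (0.78, SE 0.18, adjusted p = 0.0453). Over all genes, 22.1% were called lower and 15.9% higher between vehicle and PBS. The shares were 1.81% and 6.9% between GGsTop and vehicle, and 0.821% and 2.06% between GGsTop and PBS.

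Of the remaining marker lists, Mfge8, made by follicular dendritic cells and macrophages, was the only one of 9 lymphoid stroma genes called between vehicle and PBS (−0.74, SE 0.13, adjusted p = 0.00436 by limma), and none was called in the other comparisons. Maf was the only one of 5 follicular helper T cell genes called (0.57 in vehicle against PBS, SE 0.14, adjusted p = 0.0109 by limma). Between vehicle and PBS, 2 of 8 neutrophil markers (Mmp9 and Csf3r) and 3 of 8 fibroblast markers (Pdgfrb, Pdgfra and Col1a1) were called lower, and against PBS with GGsTop Pdgfrb was. In the former comparison 22.1% of all genes were called lower, 2 of the 8 neutrophil markers were below 0 with a median of 0.09, 5 of the 8 fibroblast markers were below 0 with a median of −0.09, and the fibroblast gene Dcn was at 1.32 without a call (SE 0.54, adjusted p = 0.0712 by limma). None of the 4 tested thymocyte, 4 thymic epithelium or 7 fat markers was called by limma in any comparison. Of 5 thyroid and parathyroid genes, Tg and Pth were called higher between vehicle and PBS and Tg lower between GGsTop and vehicle, and Acta1 was the 1 of 6 skeletal muscle genes called, higher between vehicle and PBS. Over all genes, 15.9% were called higher between vehicle and PBS. Called lower were 1.81% between GGsTop and vehicle and 0.821% between GGsTop and PBS.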
